A study of Mus musculus with 45 samples.

Results

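The additional loss of MLKL was examined in mouse ileum labelled as lacking caspase-8 in the epithelium. For this, 5 CASP8 IEC-KO Mlkl-/- mice were set against 5 CASP8 IEC-KO mice. These are 10 of the 45 arrays of the series, with 1 mouse per array. IEC-KO stands for a deletion in intestinal epithelial cells, so by their labels all 10 mice lack epithelial caspase-8. The first 5 also carry Mlkl-/-, which the labels write without a cell type. A further group, 5 Casp8 fl/fl mice with intact floxed alleles, gave the level with caspase-8 and MLKL present. A second setting, 5 FADD IEC-KO Mlkl-/- mice against 5 FADD IEC-KO mice, lacks epithelial FADD in place of caspase-8. The mice were chosen by the genotype in their titles. The sex, the strain and the Cre driver are not given in the sources used here. A Y-linked index, given further on, took separate levels within each of these groups. All mice were about 11 weeks old per one label, with no treatment named. Another label gives a range of weeks whose upper end differs from sample to sample, so the age is uncertain. RNA came from whole pieces of ileum, which hold epithelium, immune cells, muscle and stroma, and Casp8 and Fadd remain in cells outside the epithelium. A difference in level can reflect fewer cells of a type or less RNA per cell, which cannot be told apart in such samples.

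Necroptosis is a lytic cell death in which the kinase RIPK3 phosphorylates MLKL, which then permeabilizes the plasma membrane. Caspase-8, recruited to death receptors and other platforms by the adaptor FADD, carries out apoptosis and also holds RIPK3 in check, so epithelium without it is prone to necroptosis. ZBP1, a sensor of Z-form nucleic acids, is another activator of RIPK3 and is itself induced by interferon. In the ileum, loss of epithelial caspase-8 is known for the disappearance of Paneth cells, the crypt base cells that secrete alpha-defensins and lysozyme. Interferons act on promoters that carry interferon-stimulated response elements and switch on antiviral effector genes.

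The targeted genes were examined first. Casp8 had log2 intensities of 9.56, 10.06, 9.73, 9.80 and 10.04 in CASP8 IEC-KO Mlkl-/- mice, 10.89, 9.88, 10.20, 9.63 and 10.57 in CASP8 IEC-KO mice and 11.24 to 11.49 in Casp8 fl/fl mice. All 10 mice labelled as deleted lay below the floxed mice, and CASP8 IEC-KO mouse 1 lay nearest to them. How complete the epithelial deletion was in that mouse, or in the others, was not tested. Mlkl had 8.21, 8.59, 8.52, 8.18 and 8.66 in CASP8 IEC-KO Mlkl-/- mice, against 8.54, 8.98, 9.12, 9.18 and 9.13 in CASP8 IEC-KO mice and 8.43 to 8.98 in Casp8 fl/fl mice. The groups overlapped, the difference of -0.56 ± 0.19 (SE) did not pass (limma, adjusted p = 0.132), and the position of the probe relative to the deleted part of the gene is not given here, so Mlkl does not check the label of this group. Fadd, which is intact in these groups, differed by 0.01 ± 0.17 (adjusted p = 0.994).

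The arrays of a group resembled each other, with a lowest correlation across genes of 0.990 between CASP8 IEC-KO Mlkl-/- mice, 0.974 between CASP8 IEC-KO mice and 0.980 between Casp8 fl/fl mice. The median SD over genes was 0.157, 0.180 and 0.194 in the same order. CASP8 IEC-KO mouse 1 stood apart from the other 4 of its group in many epithelial genes, in which it lay near the Casp8 fl/fl mice, and results that rest on it are given with and without it. CASP8 IEC-KO mouse 2 was the lowest of its group in many interferon and antigen presentation genes. The ileal bile acid binding protein Fabp6 was between 12.23 and 12.77 in every mouse of these 3 groups, so this marker of the distal ileum was present throughout. Titles carried numbers either under 100 or of 200 and over, whose meaning is not stated, and they were treated as a possible batch: 4 CASP8 IEC-KO Mlkl-/- and 3 CASP8 IEC-KO mice had numbers under 100, 1 and 2 had numbers of 200 and over.

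The expression of 541 of 19494 genes (2.78%) changed at an adjusted p under 0.05, with 309 higher in CASP8 IEC-KO Mlkl-/- (1.59%) and 232 lower (1.19%). Of these, 107 rose and 25 fell at least 2-fold. All 5 CASP8 IEC-KO Mlkl-/- mice lay above all 5 CASP8 IEC-KO mice in 433 genes (2.22%), 237 of them called, and below them in 385 genes (1.97%), 148 of them called; together the groups were separate in 4.2% of genes. Within titles under 100 the fit called 268 genes, and within titles of 200 and over, with 1 mouse against 2, it called 42. Without CASP8 IEC-KO mouse 1 the count was 721. The p-values assume that the mice are independent, and nothing in the labels says whether they were littermates.

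Among called genes whose 5 mice per group did not overlap, the largest rises were in interferon-induced antiviral genes; several Paneth cell genes, described further on, had rises of similar or greater size in groups that overlapped. Trim30a, a TRIM family ubiquitin ligase, had log2 intensities of 9.30, 9.57, 9.06, 9.14 and 9.43 in CASP8 IEC-KO Mlkl-/- mice, against 6.12, 5.51, 6.42, 5.98 and 6.08 in CASP8 IEC-KO mice and 5.42, 6.66, 5.62, 6.41 and 6.65 in Casp8 fl/fl mice. The lowest CASP8 IEC-KO Mlkl-/- mouse lay above every mouse of both other groups, and the rise was 3.28 ± 0.35 on the log2 scale, 9.69-fold (adjusted p = 2.62e-08). Within titles under 100 the difference in Trim30a was 3.25 ± 0.41, and within titles of 200 and over it was 3.40 ± 0.67. Rsad2, which encodes viperin, an enzyme that makes a chain-terminating nucleotide against viral polymerases, had 8.94, 9.41, 8.50, 8.57 and 9.30 in CASP8 IEC-KO Mlkl-/- mice. It had 6.20, 6.05, 6.78, 6.36 and 6.38 in CASP8 IEC-KO mice and 5.98 to 6.57 in Casp8 fl/fl mice. The rise of Rsad2 was 2.59 ± 0.25, and again no mouse of either other group reached the lowest CASP8 IEC-KO Mlkl-/- mouse. Oas2, which makes the oligoadenylates that activate RNase L, had 8.48, 8.61, 8.30, 8.21 and 8.71 in CASP8 IEC-KO Mlkl-/- mice, against 5.96, 5.86, 6.30, 5.85 and 5.63 in CASP8 IEC-KO mice and 5.42 to 5.92 in Casp8 fl/fl mice. Its rise of 2.54 ± 0.20 had the smallest adjusted p of the genes named here (2.39e-11).

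The other 7 of the 10 largest rises among called genes without overlap were Slfn5 (2.59 ± 0.24), a Schlafen family member, Usp18 (2.54 ± 0.34), which removes ISG15 from proteins and restrains the type I interferon receptor, and Herc6 (2.51 ± 0.32), the ligase that attaches ISG15 in mice. They were joined by Ifit3b (2.43 ± 0.26) and Ifit3 (2.40 ± 0.27), near-identical copies whose probes may share signal, by Phf11d (2.37 ± 0.28), a PHD finger gene, and by Ubd (2.29 ± 0.54), the ubiquitin-like modifier FAT10. Their adjusted p-values (limma) ran from 1.66e-09 for Slfn5 to 0.0089 for Ubd. In 9 of the 10 genes all CASP8 IEC-KO Mlkl-/- mice also lay above all Casp8 fl/fl mice. The exception was Ubd, with 7.02, 7.16, 8.17, 7.17 and 7.67 in CASP8 IEC-KO Mlkl-/- mice, 5.98, 4.05, 5.68, 4.88 and 5.12 in CASP8 IEC-KO mice and 5.32, 7.15, 5.67, 5.81 and 6.85 in Casp8 fl/fl mice.

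**Figure D1:**
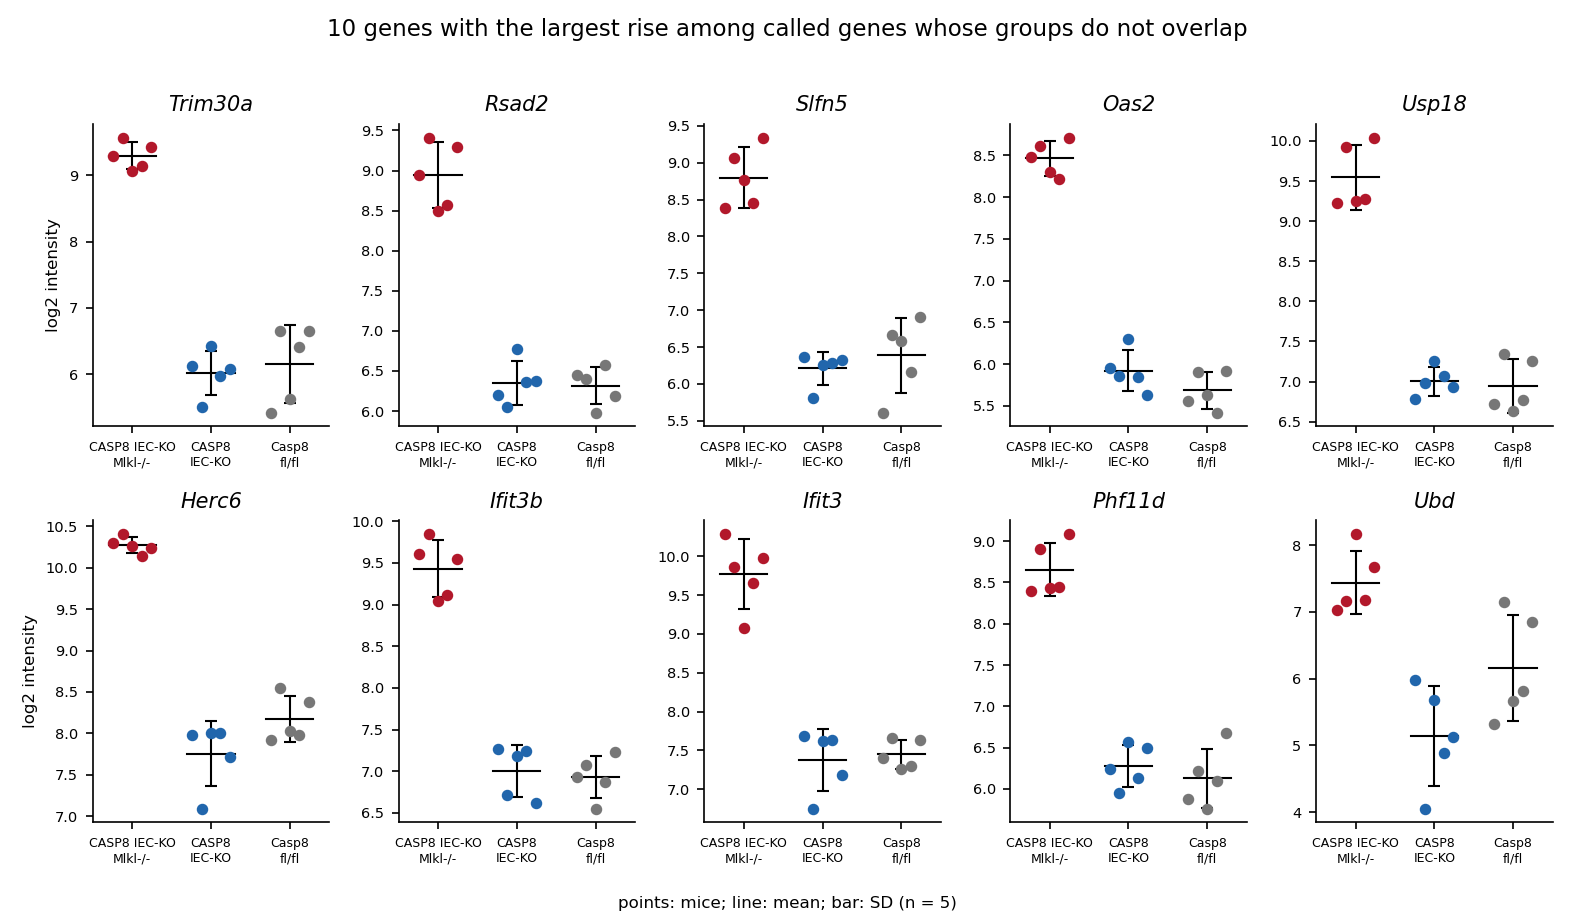
Log2 intensity of the 10 genes with the largest rise among called genes whose groups do not overlap, 1 point per mouse, in CASP8 IEC-KO Mlkl-/-, CASP8 IEC-KO and Casp8 fl/fl ileum, with the mean as a line and the SD as a bar (n = 5 each). The CASP8 IEC-KO Mlkl-/- mice form a separate upper cluster in each panel, except that Casp8 fl/fl mice reach them in Ubd.

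The promoters of the rising genes were searched on both strands for the core of the interferon-stimulated response element, 2 GAAA repeats with any 2 bases between them, 10 bases in all, in RefSeq windows (GRCm38.p6) that run from 250 bases before to 50 bases after each start. Windows were found for 8 of the 10 genes above, and 5 of these 8 held a match (Trim30a, Rsad2, Slfn5, Ifit3b and Ifit3). The 250 bases before the start are shown for 4 of them, since interferon-induced genes had the largest rises among called genes without overlap, 5′ to 3′ along the gene's strand with each match on either strand in capitals. Where the match lies on the opposite strand it reads as 2 TTTC repeats with 2 bases between them.
Trim30a: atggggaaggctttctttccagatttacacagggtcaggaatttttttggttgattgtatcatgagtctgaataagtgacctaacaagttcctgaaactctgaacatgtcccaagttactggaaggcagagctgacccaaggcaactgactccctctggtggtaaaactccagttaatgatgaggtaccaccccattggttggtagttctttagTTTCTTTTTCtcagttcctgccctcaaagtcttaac
Rsad2: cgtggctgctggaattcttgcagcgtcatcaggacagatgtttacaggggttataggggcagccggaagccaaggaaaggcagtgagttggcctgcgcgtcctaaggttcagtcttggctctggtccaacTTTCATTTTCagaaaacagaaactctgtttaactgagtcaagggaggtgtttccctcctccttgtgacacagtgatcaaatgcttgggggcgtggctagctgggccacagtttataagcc
Ifit3b: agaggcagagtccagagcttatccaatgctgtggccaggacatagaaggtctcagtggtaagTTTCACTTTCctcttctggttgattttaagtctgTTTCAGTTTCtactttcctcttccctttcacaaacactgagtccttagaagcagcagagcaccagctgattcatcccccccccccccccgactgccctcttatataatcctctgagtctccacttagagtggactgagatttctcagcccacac
Ifit3: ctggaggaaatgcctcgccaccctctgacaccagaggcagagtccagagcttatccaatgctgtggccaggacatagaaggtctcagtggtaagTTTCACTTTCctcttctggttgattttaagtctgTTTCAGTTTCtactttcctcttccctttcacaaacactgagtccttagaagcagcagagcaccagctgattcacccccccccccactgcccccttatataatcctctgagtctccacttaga
The windows lie at chr7:104465194-104465443 (minus strand) for Trim30a, chr12:26456453-26456702 (minus strand) for Rsad2, chr19:34607707-34607956 (plus strand) for Ifit3b and chr19:34583279-34583528 (plus strand) for Ifit3. The match starts 36 bases before the start of Trim30a, where 1 of 2 RefSeq windows of the gene is shown, and 120 bases before that of Rsad2. Ifit3 holds matches at 156 and 122 bases, Ifit3b at 188 and 154 bases.

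Across the comparison, 56 of the 248 rising genes with a window (22.6%) held the motif, as did 28 of the 76 that rose at least 2-fold (36.8%). Among falling genes it was 7 of 198 (3.54%), and among all tested genes with a window 618 of 15683 (3.94%). By family it was present in 8 of 12 IFIT, Mx and viperin genes, 6 of 9 genes of the Trim30 and Phf11 clusters and 4 of 8 of the OAS family. It was found in 7 of 7 GBP and IRG GTPases, 3 of 8 Schlafen genes and 0 of 12 alpha-defensins. Counts were lower in other interferon families, with 1 of 5 ISG15 conjugation genes, 1 of 4 PARP and DTX3L genes and 4 of 14 MHC class I genes. These are counts of letters in a short window, and a gene without a match may carry one elsewhere.

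Gene families of the interferon response were then counted. Over 6 antiviral families (57 measured genes: IFIT, Mx and viperin; OAS; ISG15 conjugation; Trim30 and Phf11 clusters; Schlafen; PARP with DTX3L), 44 rose and 0 fell, against 1.59% of all genes rising. Their median log2 difference was 1.06, against -0.006 over all genes, and in 44 the mice of the groups did not overlap, against 4.2% of all genes. The mean log2 intensity of these 57 genes in a mouse lay between 8.10 and 8.44 in CASP8 IEC-KO Mlkl-/-, between 6.80 and 7.17 in CASP8 IEC-KO and between 6.89 and 7.15 in Casp8 fl/fl. The order by family was 10 of 14 genes with IFIT, Mx and viperin (median 1.71), 8 of 12 with OAS (1.15), 6 of 6 with ISG15 conjugation (1.68), 8 of 9 in the Trim30 and Phf11 clusters (1.0), 5 of 9 Schlafen genes (0.69) and 7 of 7 PARP and DTX3L genes (0.90). The list was chosen with earlier results of these data known, so its count describes these genes and is not independent support. Members of these families that are close copies (Ifit, Oas1, Slfn and Phf11 genes) can share probe signal.

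Within these families, Isg15, the ubiquitin-like modifier that is attached to proteins and secreted, had 8.53, 8.87, 8.18, 8.26 and 8.62 in CASP8 IEC-KO Mlkl-/- mice, against 6.31, 5.97, 6.84, 6.32 and 5.99 in CASP8 IEC-KO mice and 5.56 to 6.35 in Casp8 fl/fl mice. It rose by 2.21 ± 0.28 (adjusted p = 8.59e-07). Mx2, a dynamin-like antiviral GTPase, rose by 2.29 ± 0.24 and Oasl2, an OAS-like protein that binds RNA, by 1.70 ± 0.25. Slfn4 rose by 2.25 ± 0.34, Slfn2, which keeps T cells and monocytes quiescent, by 2.21 ± 0.29, and Parp14, a mono-ADP-ribosyltransferase, by 1.05 ± 0.18. The count of called genes in each of the 6 families stayed within 1 of the values above when any single mouse was left out. Within titles under 100 it was 8 for IFIT, Mx and viperin, 7 for OAS and 4 for ISG15 conjugation. In that fit it was 8 for the Trim30 and Phf11 clusters, 4 for Schlafen genes and 5 for PARP and DTX3L.

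The sensors that detect foreign or misplaced nucleic acid rose in 10 of 17 measured genes and fell in 0, against 1.59% of all genes called higher. Zbp1 had 8.32, 8.50, 8.34, 8.20 and 8.55 in CASP8 IEC-KO Mlkl-/- mice, 7.08, 6.71, 7.02, 6.79 and 6.76 in CASP8 IEC-KO mice and 6.95, 7.92, 7.16, 6.87 and 7.65 in Casp8 fl/fl mice. All CASP8 IEC-KO Mlkl-/- mice lay above all mice of both other groups; the rise over CASP8 IEC-KO was 1.51 ± 0.29 (adjusted p = 8.65e-04), and the difference from Casp8 fl/fl was 1.07 ± 0.29 (0.057). Dhx58, which encodes LGP2, a partner of the RNA sensors, rose by 1.90 ± 0.21. Ddx58, which encodes RIG-I, rose by 1.19 ± 0.15, Ifih1, which encodes MDA5, by 0.79 ± 0.13, and Ifi204, a DNA-binding PYHIN family gene, by 1.23 ± 0.16.

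The interferon genes themselves showed no called change. Of 17 measured ligands of types I, II and III, 0 were called in either direction by limma, 1 had an unadjusted p under 0.05, and the median difference was 0.04. Their mean log2 intensity in a mouse was 4.91 to 5.07 in CASP8 IEC-KO Mlkl-/-, 4.79 to 4.98 in CASP8 IEC-KO and 4.76 to 5.28 in Casp8 fl/fl, below the lowest array median of 6.36. Ifnb1 differed by 0.11 ± 0.13 (adjusted p = 0.822), the type III interferons Ifnl2 by 0.02 ± 0.12 and Ifnl3 by 0.09 ± 0.08, and Ifng by 0.34 ± 0.21 (0.526). With the clock index described below as a covariate, 1 ligand was called. Among 19 receptors and signal transducers 3 rose, all transcription factors of the interferon response, against 1.59% of all genes called higher. Irf7, which amplifies interferon transcription, rose by 1.35 ± 0.17, Stat2 by 0.96 ± 0.17 and Irf9, the DNA-binding partner of STAT2, by 0.50 ± 0.11. The receptor genes Ifnar1 (0.03 ± 0.09), Ifngr1 (-0.06 ± 0.07) and Ifnlr1 (-0.27 ± 0.11) did not pass.

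GTPases of the GBP and IRG families and genes of antigen presentation were also higher. Of 11 GBP and IRG GTPases, which attack vacuoles that hold intracellular microbes, 9 rose and 0 fell (median 1.51), against 1.59% of all genes called higher. All 11 had CASP8 IEC-KO Mlkl-/- mice above all CASP8 IEC-KO mice, as did 2.22% of all genes. Igtp had 9.05, 9.38, 9.11, 9.03 and 9.27 in CASP8 IEC-KO Mlkl-/- mice, 7.71, 5.76, 7.44, 6.88 and 7.32 in CASP8 IEC-KO mice and 6.93, 8.70, 7.87, 7.11 and 8.47 in Casp8 fl/fl mice. The CASP8 IEC-KO Mlkl-/- mice lay close together and above both other groups, which spread more widely, and the rise was 2.15 ± 0.53 (adjusted p = 0.0137). Gbp3 rose by 1.53 ± 0.21, Iigp1 by 1.67 ± 0.46 and Irgm2 by 1.61 ± 0.39. Without CASP8 IEC-KO mouse 2, 4 of the 11 genes were called and Igtp (1.83), Iigp1 (1.34) and Irgm2 no longer passed; within titles under 100 the count was also 4. Iigp1 did not pass in 6 of the 10 fits that each left out 1 mouse.

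Of 15 genes of MHC class I presentation 8 rose and 0 fell (median 0.52), against 1.59% of all genes called higher, and in 13 the mice did not overlap, against 2.22% of all genes with all 5 mice above all 5. Psmb8, an immunoproteasome subunit, had 9.47, 9.62, 9.55, 9.52 and 9.61 in CASP8 IEC-KO Mlkl-/- mice, 8.74, 7.65, 8.67, 8.47 and 8.47 in CASP8 IEC-KO mice and 8.72 to 9.49 in Casp8 fl/fl mice. It rose by 1.15 ± 0.31 (adjusted p = 0.0293), and the peptide transporter Tap1 rose by 1.36 ± 0.32, H2-Q4 by 1.0 ± 0.18 and H2-T23, which encodes the Qa-1 antigen, by 0.80 ± 0.14. Set against Casp8 fl/fl, Psmb8 differed by 0.42 ± 0.31 and Tap1 by 0.70 ± 0.32, and neither passed. Without CASP8 IEC-KO mouse 2 the count was 4, without mouse 1 it was 11, and within titles under 100 it was 3. Psmb8 did not pass in 7 of the 10 fits that left out 1 mouse. Of 9 MHC class II genes 1 rose (H2-DMb2, 1.05 ± 0.30), with a median of 1.05, and 7 were called without CASP8 IEC-KO mouse 1. The count was 0 without CASP8 IEC-KO mouse 2, with the series of title numbers (under 100, or 200 and over) as a covariate, within titles under 100 and with a clock index, explained further on, as a covariate. H2-Aa shows the pattern, with 10.88, 10.69, 10.70, 10.88 and 10.90 in CASP8 IEC-KO Mlkl-/- mice, 10.80, 8.29, 9.81, 9.62 and 10.20 in CASP8 IEC-KO mice and 10.51 to 10.92 in Casp8 fl/fl mice.

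The mean of 17 genes of intraepithelial and T lymphocytes was 6.74 to 7.07 in CASP8 IEC-KO Mlkl-/- mice. It was 5.75 to 6.76 in CASP8 IEC-KO mice and 6.33 to 7.06 in Casp8 fl/fl mice. All 17 had a difference above 0 (median 0.52), and 13 had an unadjusted p under 0.05 (limma). In 5 all CASP8 IEC-KO Mlkl-/- mice lay above all CASP8 IEC-KO mice, against 2.22% of all genes. After adjustment 1 of the 17 rose, against 1.59% of all genes called higher. It was Itgae (0.78 ± 0.22), the integrin of intraepithelial lymphocytes. The mean of 16 macrophage and dendritic cell genes was 6.50 to 6.71, 5.99 to 6.71 and 6.44 to 6.90 in the same order of groups. Of these 16, 5 had an unadjusted p under 0.05 (limma). After adjustment 2 of the 16 rose, against the same 1.59% of all genes. They were Xcr1 (0.65 ± 0.19) and Lyz2 (1.19 ± 0.31), whose sequence is close to that of the Paneth cell lysozyme Lyz1. Of 12 B and plasma cell genes and 14 neutrophil genes limma called 0, against 2.78% of all genes called in either direction. In each list 1 gene had an unadjusted p under 0.05 (limma). The part of these cells in the interferon and antigen presentation results was not tested.

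Alpha-defensins and some other Paneth cell products were high in CASP8 IEC-KO Mlkl-/- mice. In 4 of the 5 CASP8 IEC-KO mice they were low, and in CASP8 IEC-KO mouse 1 they were at the level of Casp8 fl/fl. Defa34, an alpha-defensin that Paneth cells secrete against bacteria, had 11.51, 11.55, 11.10, 11.61 and 11.50 in CASP8 IEC-KO Mlkl-/- mice, 11.48, 6.09, 8.39, 5.77 and 9.29 in CASP8 IEC-KO mice and 11.21 to 11.89 in Casp8 fl/fl mice. It rose by 3.25 ± 0.60 (adjusted p = 4.92e-04). Defa28 had 7.45, 7.75, 7.05, 7.55 and 7.46 in CASP8 IEC-KO Mlkl-/- mice, 7.40, 2.93, 4.48, 3.08 and 4.48 in CASP8 IEC-KO mice and 7.30 to 8.59 in Casp8 fl/fl mice, and rose by 2.98 ± 0.48. All 22 measured alpha-defensins rose, against 1.59% of all genes, with a median of 2.45, and in 0 of them were the groups separate. With CASP8 IEC-KO mouse 1 left out, they were separate in 22. That mouse made the overlap and was picked after its values were seen, so this count is a description and not support. The share of all genes separate without it was not counted. The alpha-defensins are near-identical copies that probes can confuse, and the pairs Defa17 with Defa3, Defa20 with Defa32 and Defa2 with Defa33 had equal values in every array, so 22 symbols are fewer measurements.

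The call of the alpha-defensins depended on the spread that the fit used. With the spread taken from these 2 groups alone, 1 of 22 was called, and Defa34 had an adjusted p of 0.0783 (limma). Without CASP8 IEC-KO mouse 1, left out after its values were seen, that same fit called 22. Within titles under 100 the count was 8, and the difference in Defa34 was 2.79 ± 0.75, against 3.98 ± 1.2 within titles of 200 and over. The set of mice is graded, with CASP8 IEC-KO mice 3 and 5 between mouse 1 and mice 2 and 4 in Defa34, Mptx2 and Lyz1.

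Of 21 other Paneth cell products 5 rose and 0 fell, against 1.59% of all genes called higher. Their median difference was 0.32, and 16 of the 21 had a difference above 0. Mptx2, a mucosal pentraxin, had 10.11, 10.11, 9.28, 10.44 and 10.14 in CASP8 IEC-KO Mlkl-/- mice, 9.47, 5.43, 6.38, 4.41 and 6.85 in CASP8 IEC-KO mice and 8.99 to 11.07 in Casp8 fl/fl mice. It rose by 3.51 ± 0.65 (adjusted p = 4.83e-04), its relative Mptx1 by 3.32 ± 0.73, the lectin Itln1 by 1.55 ± 0.32 and the stress response gene Nupr1 by 0.67 ± 0.17. Lyz1, the Paneth cell lysozyme, had 11.68, 11.70, 10.89, 11.78 and 11.55 in CASP8 IEC-KO Mlkl-/- mice, against 11.81, 9.10, 9.88, 8.84 and 10.41 in CASP8 IEC-KO mice, and rose by 1.51 ± 0.32. CASP8 IEC-KO mouse 1 was the highest of both groups in Lyz1. In the fit of the 2 groups alone Mptx1, Itln1 and Lyz1 did not pass (Lyz1, adjusted p = 0.124). None of the 22 alpha-defensins differed between CASP8 IEC-KO Mlkl-/- and Casp8 fl/fl mice at the threshold (limma, median -0.19, 0 at an unadjusted p under 0.05). The difference was above 0 in 0 of the 22. Of the 21 other Paneth cell products 1 was lower than in Casp8 fl/fl mice and 0 higher, against 0.313% of all genes called lower. Their median was -0.23, with 5 above 0 and 4 at an unadjusted p under 0.05 (limma).

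Goblet cell genes rose in 5 of 17 and fell in 0 (median 0.27), against 1.59% of all genes called higher. Ccl6, a chemokine made by goblet cells among others, had 9.79, 9.86, 9.78, 9.87 and 9.97 in CASP8 IEC-KO Mlkl-/- mice, 9.36, 7.53, 8.39, 8.12 and 8.56 in CASP8 IEC-KO mice and 9.22 to 9.71 in Casp8 fl/fl mice, and rose by 1.46 ± 0.17 (adjusted p = 1.50e-07). The mucus proteins Clca1 and Fcgbp rose by 0.72 ± 0.12 and 0.39 ± 0.10, the trefoil peptide Tff3 by 0.38 ± 0.09, and Atoh1, the transcription factor of the secretory lineage, by 0.40 ± 0.11. Without CASP8 IEC-KO mouse 2 the count was 2, without mouse 1 it was 8, and in the fit of these 2 groups alone it was 2. Fcgbp did not pass in 5 and Atoh1 in 4 of the 10 fits that left out 1 mouse. Of 18 enteroendocrine genes, 13 tuft cell genes and 11 stem cell genes limma called 0, and 5, 0 and 0 of them had an unadjusted p under 0.05.

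**Figure D2:**
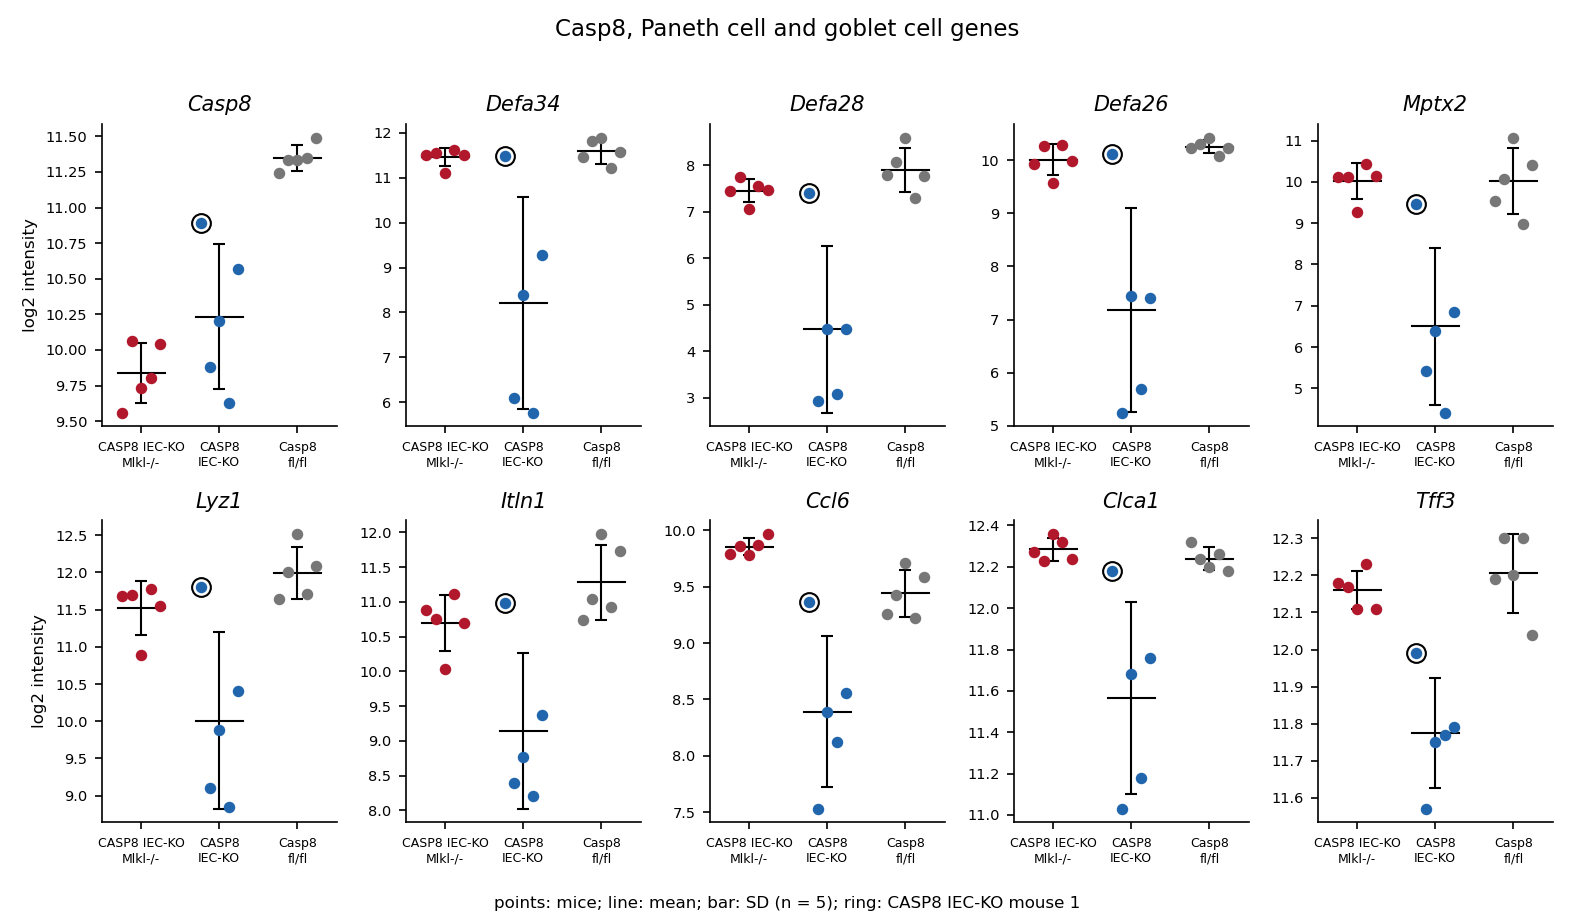
Log2 intensity of Casp8, of Paneth cell genes (Defa34, Defa28, Defa26, Mptx2, Lyz1 and Itln1) and of goblet cell genes (Ccl6, Clca1 and Tff3), 1 point per mouse, with mean and SD (n = 5 per group). The ringed CASP8 IEC-KO mouse 1, with the highest Casp8 of its group (10.89), lies near the CASP8 IEC-KO Mlkl-/- and Casp8 fl/fl mice in the Paneth cell panels, while the other 4 mice of its group lie lower.

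Among called genes whose groups did not overlap, the largest falls were in an epithelial enzyme, an interleukin antagonist and clock genes. Car1, a carbonic anhydrase abundant in colon epithelium, had 5.55, 4.87, 5.02, 5.80 and 5.42 in CASP8 IEC-KO Mlkl-/- mice, 6.22, 9.06, 10.19, 10.61 and 11.04 in CASP8 IEC-KO mice and 4.89 to 5.92 in Casp8 fl/fl mice. The groups did not overlap, CASP8 IEC-KO mouse 1 came close to the others, and the fall was 4.09 ± 0.70 on the log2 scale (17.1-fold, adjusted p = 1.82e-04). Il1rn, the secreted antagonist of the interleukin-1 receptor, had 5.74, 6.10, 6.26, 6.01 and 6.94 in CASP8 IEC-KO Mlkl-/- mice, 7.0, 9.71, 8.80, 8.18 and 8.47 in CASP8 IEC-KO mice and 5.26 to 6.37 in Casp8 fl/fl mice. Its log2 difference was -2.22 ± 0.40 (adjusted p = 3.87e-04). Paqr8, a membrane progestin receptor, had 5.33, 5.33, 5.0, 5.68 and 5.85 in CASP8 IEC-KO Mlkl-/- mice, against 6.04, 8.18, 7.55, 7.61 and 7.59 in CASP8 IEC-KO mice and 5.20 to 6.50 in Casp8 fl/fl mice. Its difference was -1.96 ± 0.26 (2.45e-06). In Car1, Il1rn and Paqr8 the difference between CASP8 IEC-KO Mlkl-/- and Casp8 fl/fl mice did not pass (-0.01 ± 0.70, 0.39 ± 0.40 and -0.57 ± 0.26).

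Metabolic and detoxification genes were among the other falls. Cyp2c55 and Cyp2c65, cytochromes P450 of the gut epithelium, had log2 differences of -2.37 ± 0.61 and -1.51 ± 0.27, the metal-binding metallothionein Mt2 -1.52 ± 0.24 and Cpn1, the catalytic subunit of carboxypeptidase N, -1.49 ± 0.36. Of a list of 12 proximal colon genes 2 fell, Car1 and Cyp2c55, and 0 rose (median -0.09), against 1.19% of all genes called lower. The part of position along the gut in these falls was not tested. Of 23 intestinal P450 genes 4 fell and 0 rose, against the same 1.19%. The P450 count was 1 within titles under 100 and without CASP8 IEC-KO mouse 4. Of 25 glutathione transferases and Akr1b aldo-keto reductases 6 fell and 0 rose (median -0.24), against 1.19% of all genes called lower. Gstm1 had 8.85, 8.69, 8.86, 8.97 and 8.81 in CASP8 IEC-KO Mlkl-/- mice, 9.41, 9.35, 9.91, 9.89 and 10.10 in CASP8 IEC-KO mice and 9.01 to 9.24 in Casp8 fl/fl mice. Gstm1 differed by -0.90 ± 0.17, Gsta2 by -0.99 ± 0.19, Gsta3 by -0.82 ± 0.14 and Gsta4 by -0.82 ± 0.22, which did not pass in 6 of the 10 fits that left out 1 mouse. All conjugate glutathione to reactive compounds.

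**Figure D3:**
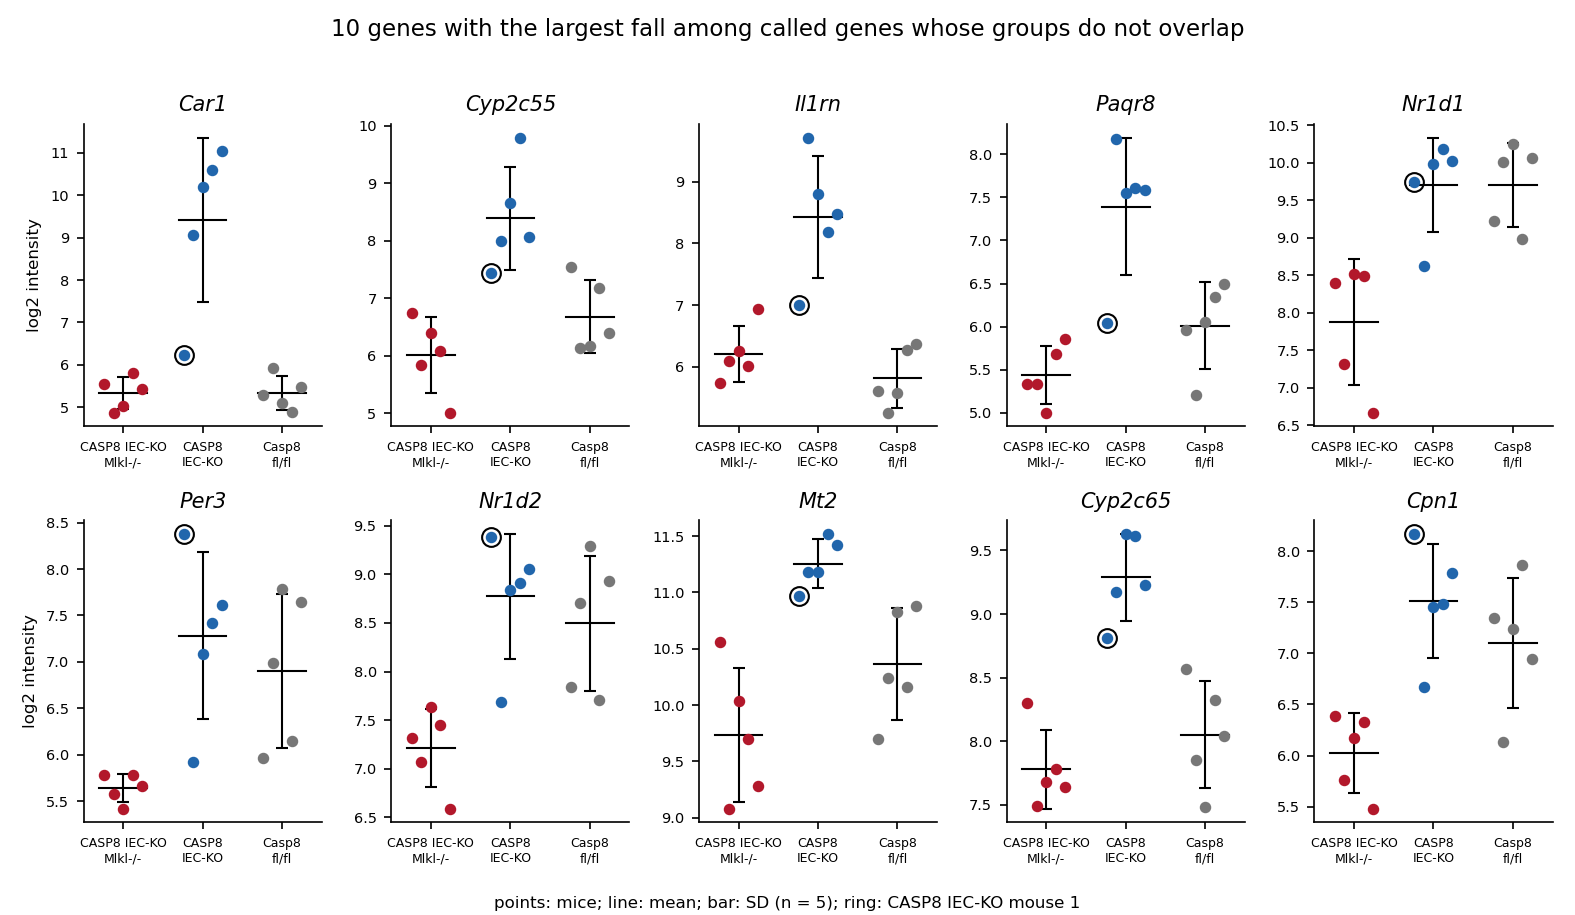
Log2 intensity of the 10 genes with the largest fall among called genes whose groups do not overlap, 1 point per mouse, with mean and SD (n = 5 per group). The ringed CASP8 IEC-KO mouse 1 is the lowest of its group in Car1 (6.22), Il1rn (7.0) and Paqr8 (6.04), but not in the clock genes Nr1d1, Nr1d2 and Per3.

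Immediate early genes, which growth factors and stress switch on within minutes, fell in 3 of 21 and rose in 0 (median -0.24). Of all genes 1.19% were called lower. The count was 5 without CASP8 IEC-KO mouse 1 and 2 without mouse 2 or in the fit of the 2 groups alone. Egr1 had 7.96, 7.86, 7.81, 7.54 and 7.93 in CASP8 IEC-KO Mlkl-/- mice, 8.04, 9.98, 9.43, 8.95 and 9.48 in CASP8 IEC-KO mice and 7.37 to 8.52 in Casp8 fl/fl mice. It differed by -1.35 ± 0.27 (adjusted p = 0.0010), Fos by -1.08 ± 0.23 and Junb by -0.39 ± 0.09, which did not pass in the fit of the 2 groups alone (adjusted p = 0.0876). Of 14 genes of fetal-like and repairing epithelium 2 fell, against 1.19% of all genes called lower. They were Il1rn and the epidermal growth factor family ligand Ereg (-0.63 ± 0.16). With the clock index as a covariate 5 of these 14 were called, and without CASP8 IEC-KO mouse 2 only Il1rn remained past the threshold.

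The genes of the death pathways moved in both directions, where 1.59% of all genes were called higher and 1.19% lower. Ripk3 had 8.06, 8.33, 8.36, 8.38 and 8.58 in CASP8 IEC-KO Mlkl-/- mice, 8.42, 9.27, 8.91, 8.99 and 9.09 in CASP8 IEC-KO mice and 7.75 to 8.35 in Casp8 fl/fl mice. Its fall of 0.60 ± 0.16 passed (adjusted p = 0.0309), but not in the fit of the 2 groups alone (0.0594), within titles under 100 (0.134) or in 8 of the 10 fits that left out 1 mouse. Of 12 necroptosis genes, Zbp1 rose and Ripk3 and the TNF receptor adaptor Tradd (-0.30 ± 0.07) fell. Of 21 death receptors, ligands and regulators 3 rose and 3 fell: Tnfsf10, which encodes TRAIL (1.30 ± 0.26), Fas (0.58 ± 0.14) and the inhibitor of apoptosis Birc3 (0.42 ± 0.09) were higher, and Tnfrsf21 (-0.76 ± 0.14), the TRAIL receptor Tnfrsf10b (-0.65 ± 0.16) and the survival factor Mcl1 (-0.35 ± 0.08) were lower. In the fit of the 2 groups alone 2 of the 21 were called, with Tnfsf10, Fas, Birc3 and Tnfrsf10b not passing, and without CASP8 IEC-KO mouse 2 the count was 4. Of 26 inflammasome and gasdermin genes 3 rose: Il18bp, the soluble trap of interleukin-18 (1.37 ± 0.27), Casp4 (0.90 ± 0.22) and Casp1 (0.33 ± 0.10). The count was 1 without CASP8 IEC-KO mouse 4 and within titles under 100, and Casp1 did not pass in 8 of the 10 fits that left out 1 mouse. The NF-kB list of 25 genes had 3 rises, the chemokine Ccl20 (0.54 ± 0.14), Birc3 and the subunit gene Nfkb2, with 1 in the fit of the 2 groups alone, 1 without CASP8 IEC-KO Mlkl-/- mouse 5 and 0 within titles under 100. Ccl20 did not pass in 5 of the 10 fits that left out 1 mouse.

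Circadian clock genes differed between the groups. Of 18 clock genes 5 fell and 2 rose, against 1.19% of all genes called lower and 1.59% called higher. Nr1d1, which encodes the repressor REV-ERB alpha, had 8.40, 7.32, 8.52, 8.49 and 6.67 in CASP8 IEC-KO Mlkl-/- mice, 9.74, 8.62, 9.98, 10.18 and 10.02 in CASP8 IEC-KO mice and 9.23, 10.01, 10.25, 8.99 and 10.07 in Casp8 fl/fl mice, a difference of -1.83 ± 0.34. Dbp, a clock output factor, differed by -2.51 ± 0.67, Per3 by -1.64 ± 0.46 and Nr1d2 by -1.56 ± 0.34. Of the 10 fits that left out 1 mouse Per3 did not pass in 9 and Dbp in 7, and within titles under 100 Dbp, Per3, Nr1d1 and Nr1d2 did not. Arntl, the activator BMAL1, had 9.32, 9.27, 9.41, 9.19 and 9.31 in CASP8 IEC-KO Mlkl-/- mice, against 7.01, 8.88, 8.34, 8.05 and 7.79 in CASP8 IEC-KO mice, and rose by 1.28 ± 0.37. The repressor gene Cry1 also rose, by 0.72 ± 0.16 (adjusted p = 0.0036), and Bhlhe40, another repressor of the clock, had a difference of -0.53 ± 0.13. The hour of collection is not given in the sources used here.

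A clock index, the mean of Arntl, Clock and Npas2 minus the mean of Nr1d1, Dbp, Per2 and Per3, was 1.99 to 2.76 in CASP8 IEC-KO Mlkl-/- mice, -1.33 to 1.93 in CASP8 IEC-KO mice and -0.78 to 1.99 in Casp8 fl/fl mice. The lowest CASP8 IEC-KO Mlkl-/- mouse lay level with the highest Casp8 fl/fl mouse and above every CASP8 IEC-KO mouse, so clock phase and genotype cannot be told apart. With the index as a covariate, which removes its own genes by construction, 0 of 18 clock genes were called, and Cyp2c55, Cpn1, Tns4, Psmb8 and Tap1 also did not pass (Tap1, 1.18 ± 0.37). The differences in Trim30a (3.35 ± 0.41), Oas2 (2.54 ± 0.24), Defa34 (4.44 ± 0.61) and Car1 (-4.90 ± 0.79) passed. In total 948 genes were called with the covariate, 354 higher and 594 lower. Among the CASP8 IEC-KO and Casp8 fl/fl mice, 3 had an index close to the CASP8 IEC-KO Mlkl-/- mice. They were CASP8 IEC-KO mouse 2 (1.93) and Casp8 fl/fl mice 1 (1.99) and 4 (1.91). Their Trim30a was 5.51, 5.42 and 6.41 and their Oas2 was 5.86, 5.56 and 5.42, below every CASP8 IEC-KO Mlkl-/- mouse. Their Tns4, a focal adhesion gene, was 9.08, 9.48 and 9.44, against 8.77 to 9.23 in CASP8 IEC-KO Mlkl-/- mice. Their Nr1d1 was 8.62, 9.23 and 8.99, above every CASP8 IEC-KO Mlkl-/- mouse, so the match in the index does not extend to each clock gene. The part of clock phase in these differences was not tested.

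**Figure D4:**
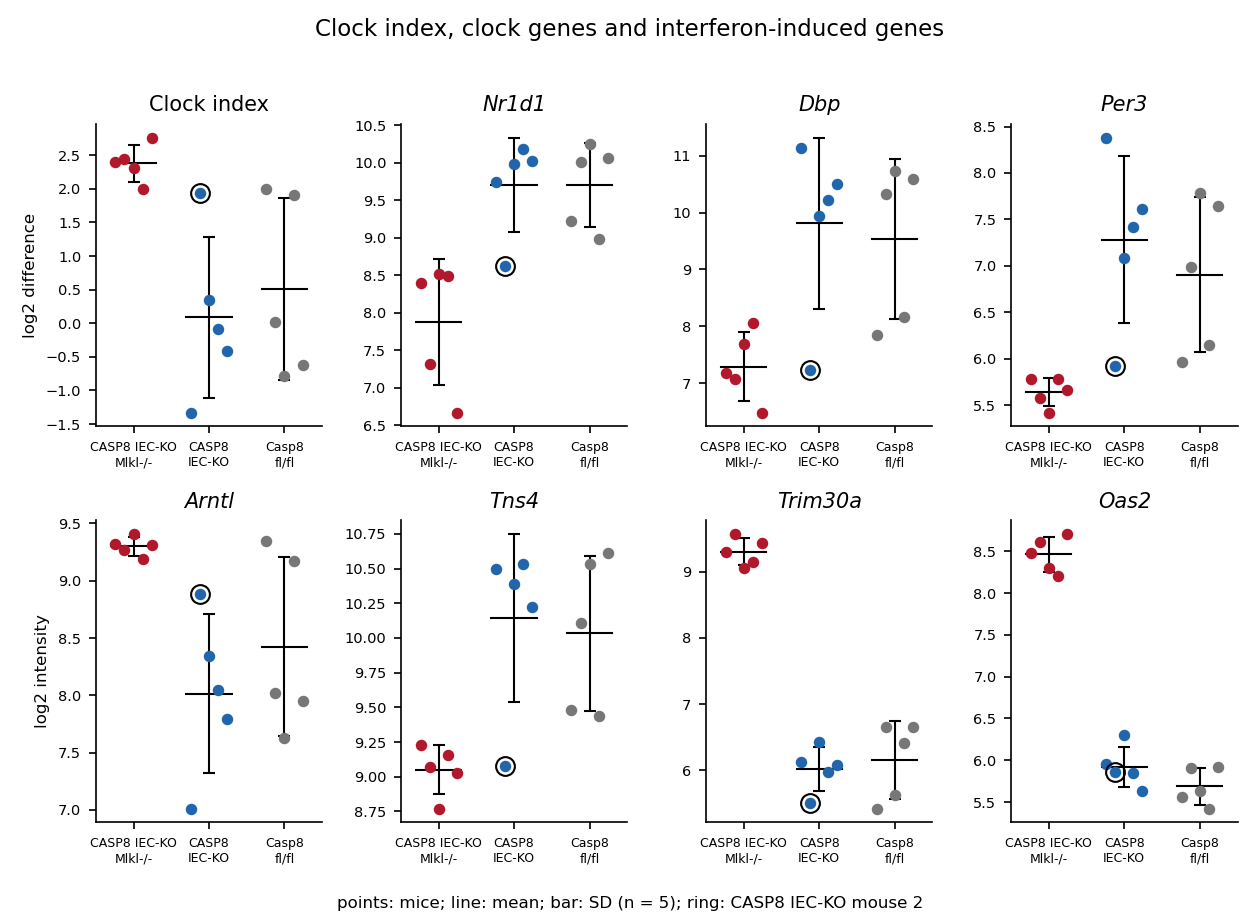
Clock index (log2 difference), clock genes, Tns4 and the interferon-induced genes Trim30a and Oas2 (log2 intensity), 1 point per mouse, with mean and SD (n = 5 per group). The ringed CASP8 IEC-KO mouse 2 has a clock index of 1.93. It lies next to the CASP8 IEC-KO Mlkl-/- mice in Dbp, Per3 and Tns4. Its Nr1d1 (8.62) lies above all of them and its Arntl below all of them. In Trim30a and Oas2 it lies with the other mice of its group.

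Set against Casp8 fl/fl mice, CASP8 IEC-KO Mlkl-/- mice differed in 212 genes (1.09%), 151 higher and 61 lower. This comparison shares its CASP8 IEC-KO Mlkl-/- arrays with the first, so the values stand side by side and do not support each other. In the 6 antiviral families 40 of 57 genes were higher and 0 lower (median 1.02), and the same 57 genes had 0 limma calls between CASP8 IEC-KO and Casp8 fl/fl mice (median 0.01, 7 at an unadjusted p under 0.05). Of all genes 4.17% were called there, and 2.89% were higher in CASP8 IEC-KO. The 5 largest rises over Casp8 fl/fl were Trim30a (3.15 ± 0.35), Oas2 (2.78 ± 0.20), Slfn4 (2.75 ± 0.34), Rsad2 (2.63 ± 0.25) and Usp18 (2.60 ± 0.34). GBP and IRG GTPases passed in 3 of 11, MHC class I genes in 1 of 15 and alpha-defensins in 0 of 22. Of all genes 0.775% were higher and 0.313% lower. The 5 largest falls were Nr1d1 (-1.83 ± 0.34), Casp8 itself (-1.51 ± 0.14), Slc6a8, the creatine transporter (-1.02 ± 0.18), Tns4 (-0.98 ± 0.25) and Fam102a (-0.79 ± 0.18). Slc6a8 had 12.02, 11.17, 11.03, 11.05 and 11.28 in CASP8 IEC-KO Mlkl-/- mice and 12.17 to 12.45 in Casp8 fl/fl mice. Without Casp8 fl/fl mouse 3 the count of changed genes was 123, and it was 125, 135 and 140 without CASP8 IEC-KO Mlkl-/- mice 3, 2 and 5.

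In the ileum without FADD, loss of MLKL gave 313 changed genes (1.61%, with 0.857% of all genes higher), from arrays separate from those above. In the 6 antiviral families 33 of 57 genes rose and 0 fell there (median 0.68), with Trim30a at 2.88 ± 0.35 and Oas2 at 2.25 ± 0.20. Alpha-defensins were called in 0 of 22 (median 0.80, Defa34 0.85 ± 0.60), and Car1 fell by 3.20 ± 0.70. The test of the difference between the settings (limma, interaction) called 0 of the 57 antiviral genes, of which 6 had an unadjusted p under 0.05. It called 0 of the 22 alpha-defensins, of which 19 had an unadjusted p under 0.05. The difference in Defa34 was 2.40 ± 0.85 (adjusted p = 0.493) and in Lyz1 1.81 ± 0.46 (0.175), so the 2 settings are not shown to differ in Paneth cell genes.

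**Figure D5:**
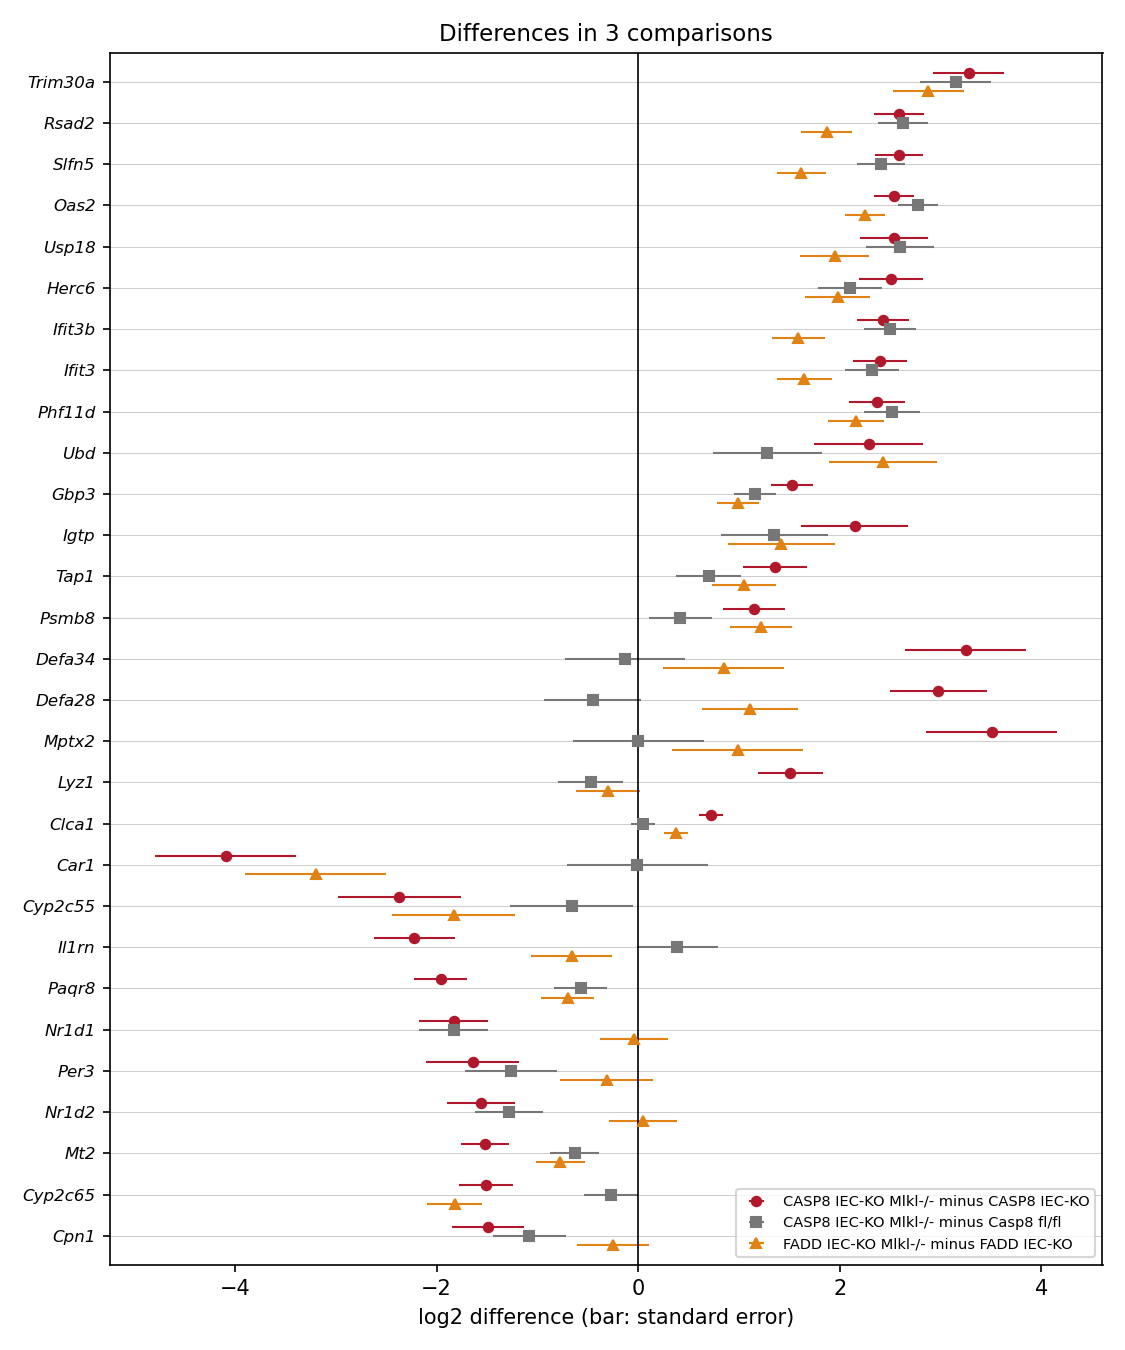
Log2 difference with its standard error for 29 genes in CASP8 IEC-KO Mlkl-/- minus CASP8 IEC-KO, CASP8 IEC-KO Mlkl-/- minus Casp8 fl/fl, and FADD IEC-KO Mlkl-/- minus FADD IEC-KO. Interferon-induced genes such as Oas2 lie right of 0 in all 3 (2.54, 2.78 and 2.25), and the alpha-defensin Defa34 had values of 3.25, -0.13 and 0.85.

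That test called 11 of 19494 genes (0.0564%), 5 with a higher effect without caspase-8 (0.0256%) and 6 with a lower one (0.0308%). At least 2-fold differences made up 0.0205% of all genes, and 10 of the 11 called genes have names beyond a clone number. Enpp3, a surface nucleotidase, had 7.42, 7.38, 7.37, 7.40 and 7.29 in CASP8 IEC-KO Mlkl-/- mice, against 7.32, 6.16, 6.32, 6.04 and 7.07 in CASP8 IEC-KO mice. In the FADD setting it had 6.38, 5.88, 6.32, 6.60 and 6.28 in FADD IEC-KO Mlkl-/- mice, against 7.23, 7.27, 6.92, 7.17 and 6.54 in FADD IEC-KO mice. It was thus higher after MLKL loss without caspase-8 (0.79 ± 0.20) and lower without FADD (-0.74 ± 0.20), a difference of 1.53 ± 0.28 (adjusted p = 0.0085). Il22ra1, the receptor subunit through which epithelium responds to interleukin-22, differed by 0.03 ± 0.11 without caspase-8 and by -0.81 ± 0.11 without FADD (difference 0.84 ± 0.15). Gsta2 differed by -0.99 ± 0.19 without caspase-8 and by 0.52 ± 0.19 without FADD (difference -1.50 ± 0.26), and Cntnap1, an axonal adhesion gene, by 0.14 ± 0.16 and 1.38 ± 0.16 (difference -1.24 ± 0.22). The calls of Enpp3, Pdgfc, Il22ra1, Cntnap1 and Adss held under all 31 alternatives, Ppm1k under 17 and Efl1 under 16. Without CASP8 IEC-KO mouse 1 the test called 25 genes, without mouse 3 it called 7, and without FADD IEC-KO mouse 4 it called 22.

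Several gene groups had no called member. These were the lists for brush border enzymes (15 genes, median -0.05), lipid absorption (16, -0.01), distal ileum (12, -0.00), proliferation (20, -0.08), cholesterol synthesis (19, -0.16), the respiratory chain (20, -0.06), the unfolded protein response (15, 0.05), fibroblasts (18, 0.09), smooth muscle (14, -0.01) and endothelium (12, 0.08). A list with no call is not shown to be equal between the groups, since 5 mice per group limit what the test can detect. Of all genes 2.78% were called. In cholesterol synthesis 1 of 19 genes had a difference above 0 and 5 had an unadjusted p under 0.05 (limma). The other lists had 0 to 3 genes at that unadjusted p. In the respiratory chain 2 of 20 genes had a difference above 0.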

How the data were processed

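RNA from whole ileum pieces, 1 mouse per array, was measured on 45 Affymetrix arrays in 9 groups of 5. The deposited log2 intensities were made by the authors; per the submitters' processing notes, Expression Console and Transcriptome Analysis Console of Affymetrix were used. The summarization method is not given in the sources used here. Array medians lay between 6.36 and 6.44, and no further normalization was applied. Of 22142 probes, 19527 carried 1 gene symbol and 2615 without one were not used; for 33 genes with several probes the one with the highest mean was kept, leaving 19494 genes. limma 3.58.1 (R 4.3.3) was fitted to all 45 arrays with a mean per group (36 residual degrees of freedom), eBayes moderation and Benjamini-Hochberg adjustment over all genes, with calls at an adjusted p under 0.05; the code was tested on simulated data. Errors beside differences are standard errors, and the number of arrays limits the precision. Arrays carry no read depth. Mice are numbered within a group in accession order, which has no meaning.

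Genes were named by rule: the targeted genes with Ripk3 and Zbp1, the 10 largest called rises and falls with groups that do not overlap (predicted genes left out), up to 4 called members of each list, and the 5 largest rises and falls of the other comparisons. Arntl, Bhlhe40, Cry1, H2-Aa, Ifih1, Mcl1, Nupr1, Tff3, the interferons and their receptor genes lie outside it and were chosen after their values were seen. The comparison, its members and all gene lists were chosen with earlier results of these data known. Promoter sequences are RefSeq windows of GRCm38.p6. Alternatives covered the arrays in the fit, title numbers, normalization, dim genes, array weights, the spread model, probe choice, a clock index, a Y-linked index and each mouse left out; the fit of the 2 groups without CASP8 IEC-KO mouse 1, the list counts under other settings and the Y-linked index were added after seeing the data.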

Additional observations from a re-analysis of the deposited data

Results flagged for a closer look

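In 17 of 204 sets of 5 mice of a named gene, 1 mouse lay far from the other 4 by Dixon's criterion, which chance meets in about 1 in 20 sets. CASP8 IEC-KO Mlkl-/- mouse 3 accounted for 7 of them. It was lowest in the Paneth cell genes Defa34 (11.10, others 11.50 to 11.61), Defa35 (10.96, others 11.48 to 11.67), Lyz1 (10.89, others 11.55 to 11.78) and Mptx2 (9.28, others 10.11 to 10.44). It was also lowest in Oasl2 (10.95, others 11.37 to 11.48) and Fam102a (8.47, others 8.82 to 8.95) and highest in Casp1 (10.39, others 10.16 to 10.20). CASP8 IEC-KO mouse 2 accounted for 6. It was lowest in Casp1 (9.56, others 9.91 to 10.01), H2-T23 (9.56, others 10.09 to 10.31), Psmb8 (7.65, others 8.47 to 8.74), Slfn5 (5.81, others 6.26 to 6.37), Nr1d1 (8.62, others 9.74 to 10.18) and Tns4 (9.08, others 10.22 to 10.53). The remaining sets were Fadd (7.80, others 7.36 to 7.39) and Slc6a8 (12.02, others 11.03 to 11.28) in CASP8 IEC-KO Mlkl-/- mouse 1, Tnfrsf10b (6.05, others 6.34 to 6.40) in CASP8 IEC-KO Mlkl-/- mouse 4 and Ifna5 (7.28, others 6.78 to 6.87) in CASP8 IEC-KO mouse 1.

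In 10 named genes the effect of MLKL loss differed between ileum without caspase-8 and ileum without FADD by limma's interaction term. The difference was above 0 in Enpp3 (1.53, from 0.79 without caspase-8 and -0.74 without FADD), Pdgfc (0.85, from 0.30 and -0.55), Il22ra1 (0.84, from 0.03 and -0.81), Ppm1k (0.80, from 0.76 and -0.04) and Glcci1 (0.78, from 0.54 and -0.24). It was below 0 in Gsta2 (-1.50, from -0.99 and 0.52), Cntnap1 (-1.24, from 0.14 and 1.38), Olfr482 (-0.97, from -0.62 and 0.35), Adss (-0.75, from -0.52 and 0.23) and Efl1 (-0.54, from -0.28 and 0.26). Olfr482 is an olfactory receptor gene whose log2 intensity stayed between 2.12 and 3.17 in the CASP8 IEC-KO Mlkl-/- and CASP8 IEC-KO mice, near the low end of the arrays.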

How the results depend on the processing

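For CASP8 IEC-KO Mlkl-/- minus CASP8 IEC-KO, the count of 541 genes (57.1% higher) became 268 within titles under 100, 42 within titles of 200 and over (90.5% higher), 1083 with array weights and 948 with the clock index (37.3% higher), and ranged from 392 to 721 with 1 mouse left out. Against Casp8 fl/fl, 212 became 121, 12, 524 and 109 under those settings in that order, and 123 to 274 with 1 mouse left out. The interaction count of 11 became 56 with array weights and 52 with the clock index, and 7 to 25 with 1 mouse left out; titles of 200 and over gave no value, since no FADD IEC-KO Mlkl-/- mouse has such a number. The cause of these shifts was not tested. Other settings kept each count within 1.5 times. Of 93 named genes called in a comparison, 69 passed with any 1 mouse left out and 19 under every alternative, among them Trim30a, Rsad2, Oas2, Slfn5, Usp18, Isg15 and Mt2. Without CASP8 IEC-KO mouse 2, 17 of the 93 did not pass, among them Psmb8, Ripk3, Fas, Junb, Gsta4, Fcgbp, Atoh1, Casp1, Ccl20 and Tnfrsf10b. The difference in Fadd, near 0, was -0.19 within titles of 200 and over, -0.00 with centred arrays, -0.01 with array weights, -0.04 in the fit of 2 groups without CASP8 IEC-KO mouse 1, and -0.08 to 0.07 with 1 mouse left out. That in Il22ra1 was -0.16 within titles of 200 and over, -0.02 with array weights, -0.07 with the clock index, and -0.06 to 0.08 with 1 mouse left out. Per3 was 0.05 with the clock index, which contains it. The planned sex index with Xist was not run, since no probe carried that name here. The Y-linked index, with its sign reversed, was -8.02, -3.03, -8.10, -3.28 and -7.97 in CASP8 IEC-KO Mlkl-/- mice. It was -8.13, -2.93, -3.63, -2.75 and -8.02 in CASP8 IEC-KO mice. CASP8 IEC-KO mice 1 and 5, which share a level, also had the highest Defa34 and Enpp3 of their group. With the index as a covariate 540 genes were called, and 92 of the 93 named genes passed, all but Casp1. No paired analysis was possible because the titles share no replicate numbers between the groups.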

Other observations

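Among gene groups not described above, Pparg, a nuclear receptor of lipid metabolism, had log2 intensities of 7.36, 7.0, 7.39, 7.38 and 7.70 in CASP8 IEC-KO Mlkl-/- mice, 7.66, 8.45, 8.38, 8.61 and 8.50 in CASP8 IEC-KO mice and 6.97 to 7.78 in Casp8 fl/fl mice. Its difference was -0.95 ± 0.15 (limma, adjusted p = 2.28e-05), and the other 20 of 21 genes of fatty acid oxidation and PPAR targets were not called. The hypoxia-inducible carbonic anhydrase Car9 had 7.54, 7.58, 7.39, 7.53 and 7.83 in CASP8 IEC-KO Mlkl-/- mice, against 7.85, 8.58, 8.28, 8.60 and 8.33 in CASP8 IEC-KO mice, a difference of -0.75 ± 0.13. In both genes CASP8 IEC-KO mouse 1 was the lowest of its group. Of 21 genes of nucleoside handling 2 rose, against 1.59% of all genes called higher. They were Samhd1, a deoxynucleotide hydrolase that restricts viruses (0.91 ± 0.22), and Xdh, which encodes xanthine dehydrogenase (0.71 ± 0.19).

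Genes near Mlkl on its chromosome, which can carry alleles of the strain in which a knockout was made, were read as a check. Of 20 such neighbours, 10 on each side, 0 were higher and 1 was lower, Fa2h (-0.99 ± 0.26, limma, adjusted p = 0.0253), and their median difference was 0.03, in a range of -0.99 to 0.35. Fa2h was chosen after its value was seen.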
